A study of Mus musculus with 6 samples.

Results

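Heat shock proteins, J-proteins and the chaperonin CCT were followed as messenger RNAs in HT22, a neuronal cell line from the mouse hippocampus, with and without induction of the transcription factor KLF13. The members are the genes of the count table whose symbol begins with Hsp, with Dnaja, Dnajb or Dnajc and a digit, or with Cct and a digit, together with Tcp1, Ahsa1, Hsf1 and Hsf2. The pattern caught 97 rows. Leaving out 12 pseudogene rows and 5 chaperone genes of the endoplasmic reticulum (Hspa5, Hsp90b1, Dnajb9, Dnajb11 and Dnajc3) left 80 members of 29493 genes. Of these, 68 passed the filter on low counts and were tested, and the other 12 had at most 13 counts in any library. Both groups carried the line named HT22-TR/TO-V5Klf13-1, in which a V5-tagged Klf13 transgene is placed under the tet repressor. One group received doxycycline at 1 µg/ml (Dox, n = 3) and the other vehicle (n = 3), each for 8 hours. The labels do not say whether the line is 1 clone nor whether each sample of a group was its own culture. The p-values therefore cover only sample-to-sample spread, and that may be technical. No library had the drug without the transgene, so effects of KLF13 and of doxycycline cannot be told apart.

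Molecular chaperones bind unfolded proteins and help them reach or regain their shape. HSP70 proteins hold and release short stretches of a client in cycles of ATP hydrolysis that J-proteins start and that exchange factors reset. HSP90 receives partly folded clients, such as kinases and hormone receptors, and the ring-shaped chaperonin CCT folds actin and tubulin in its cavity. The factor HSF1 switches on the inducible members of these families after heat or other protein damage, through inverted repeats of a short sequence called the heat shock element. Neurons depend on constitutive chaperones because they do not dilute damaged proteins by dividing.

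Libraries held 38566800 to 52930400 counts. Klf13 stood at 37.0, 36.1 and 39.1 CPM (counts relative to effective library size) in vehicle replicates 1, 2 and 3 and at 204.6, 187.7 and 183.6 CPM in Dox replicates 1, 2 and 3, and its reads cannot separate gene and transgene. Of 9 neuron markers, 5 were in the table. Among them Tubb3 was at 60.7 ± 0.210 CPM with vehicle (SD, n = 3), and Map2 was near the detection limit at 0.175 ± 0.0793 CPM (SD, n = 3). All 4 that could be tested fell with Dox, Tubb3 to 14.7 ± 0.410 CPM (SD, n = 3), and the part of this in the results on members was not tested. The fibroblast collagen gene Col1a1 fell from 2580 ± 76.0 CPM to 1635 ± 58.9 CPM with Dox (n = 3 each, SD). The glial genes Gfap and Aif1 were at 0.24 CPM or lower in their group means. In a culture, fewer cells of a kind and less RNA per cell cannot be told apart.

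Promoter sequences show how the regulatory elements of the family look in this genome. RefSeq promoters (GRCm38.p6, 250 bases before to 50 after each start) matched 65 of the 80 members, with 84 windows. The heat shock element was searched as GAANNTTC on both strands. The other order of its units, TTCNNGAA, was not searched as a short form. GAANNTTC was present in 17 of the 84 member windows (15 genes), 20.2%, against 7.86% of all 32851 promoter windows. The longer form, in which the short form is followed after 2 bases by GAA or preceded at 2 bases by TTC, was in 6 member windows of 4 genes (Hspd1, Hspe1, Hsph1 and Dnajb6), 7.14% against 0.603% of all windows. Hspd1 and Hspe1, the mitochondrial chaperonin and its lid, are neighbours on opposite strands, and their 18-base element (chr1:55088059-55088076, plus strand) is shown because it joins the units of both long forms. It begins 89 bases before the RefSeq start of Hspe1. It lies before 1 of the 2 RefSeq starts of Hspd1 and after the other. Hspa1a (chr17:34972157-34972406, minus strand) and Hspa1b (chr17:34959239-34959488, minus strand), the stress-inducible HSP70 pair, are shown because their promoters match at 247 of 250 bases and their reads are hard to separate. Capitals mark the heat shock element, which begins 104 bases before the start in both Hspa1a and Hspa1b.

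Hspd1-Hspe1: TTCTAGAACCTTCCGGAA
Hspa1a: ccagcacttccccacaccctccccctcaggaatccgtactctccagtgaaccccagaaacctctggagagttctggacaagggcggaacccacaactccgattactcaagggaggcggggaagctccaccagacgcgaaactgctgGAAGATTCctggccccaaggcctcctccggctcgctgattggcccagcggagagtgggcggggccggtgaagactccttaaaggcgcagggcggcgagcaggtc
Hspa1b: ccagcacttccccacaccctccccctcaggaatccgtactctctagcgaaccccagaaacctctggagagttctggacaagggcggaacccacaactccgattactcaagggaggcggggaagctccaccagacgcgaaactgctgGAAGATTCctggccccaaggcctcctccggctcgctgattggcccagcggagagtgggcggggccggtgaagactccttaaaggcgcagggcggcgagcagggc

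The 13-base element of Hsph1, TTCTGGAAAGTTC, begins at base 16 or 37 of the transcript, depending on which RefSeq start is used. Before both starts the Hsph1 sequence also holds TTCTCGAA, of the order that was not searched. The 13-base element of Dnajb6, GAATCTTCCGGAA, begins 46 or 127 bases before its RefSeq starts. Dnajc21, the tested member with the largest fall, has no heat shock element in its window (chr15:10470517-10470766, minus strand, bases before the start), which is shown with capitals for the GC box, GGGCGG or its reverse complement. KLF proteins are known to bind GC-rich and CACCC sequences. The GC box was in 71.4% of member windows and in 60.1% of the windows of genes tested, and the CACCC box, searched as CCACCC on both strands, in 38.1% and 35.9%. A match is a description of letters, and no binding was measured.

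Dnajc21: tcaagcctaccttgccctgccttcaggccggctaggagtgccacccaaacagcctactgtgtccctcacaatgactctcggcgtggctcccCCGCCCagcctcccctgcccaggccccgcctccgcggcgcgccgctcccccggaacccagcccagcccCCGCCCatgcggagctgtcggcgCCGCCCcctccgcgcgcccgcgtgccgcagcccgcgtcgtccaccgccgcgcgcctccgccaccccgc

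Members moved in both directions, mostly by small amounts. The edgeR quasi-likelihood test, with a threshold of 0.05 on the adjusted p, called 25 of 68 tested members higher and 21 lower in Dox libraries, and 22 did not pass. In all 18067 genes tested the share called was 54.7%, with 25.9% higher and 28.8% lower. Members are abundant genes, and abundance raises the share called. In a fit of genes of at least 5 CPM alone, 47 of 63 members (74.6%) and 70.9% of all genes were called, so the members' share lay near the background. The median log2 fold change was 0.055 for the members and 0.018 for all genes tested. Changes of at least 1.5-fold were found in 13 called members, of which 10 fell and 3 rose, and at least 2-fold in 2, Dnajc21 and Dnajb2, both lower. That is 19.1% of tested members past 1.5-fold, beside 22.1% of all genes. Dox and vehicle libraries did not overlap in 56 of the 68, beside 64% of all genes tested. The balance rested on scaling: with upper-quartile scaling 37 members were higher and 16 lower. All genes moved the same way under that scaling, to 6246 higher and 4457 lower from 4687 and 5203. Without vehicle replicate 3, 16 were higher and 18 lower.

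**Figure D1:**
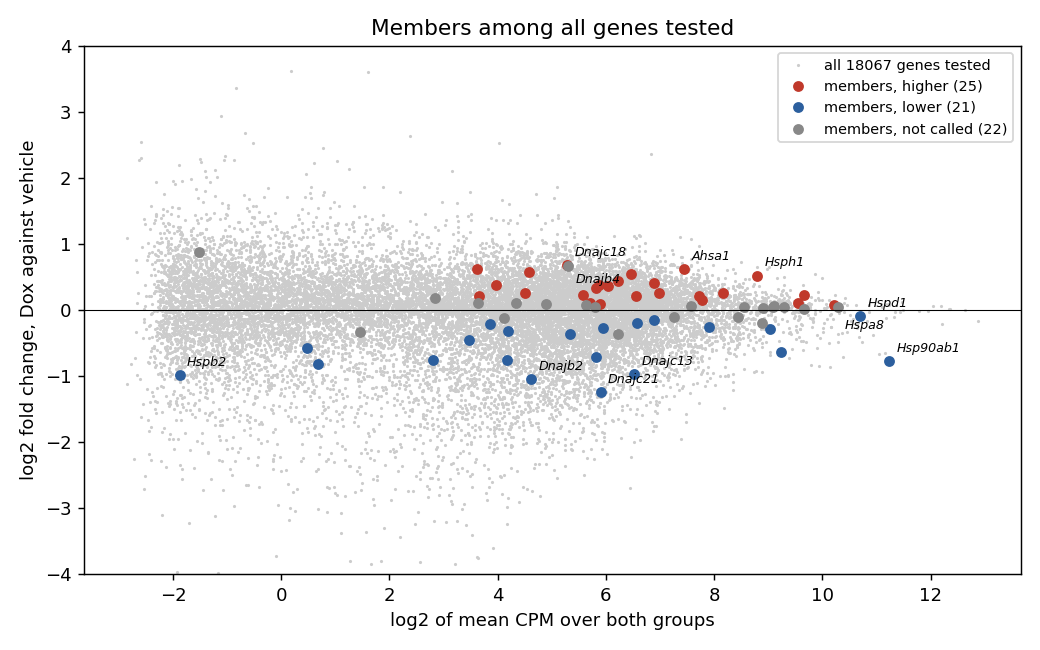
Each point is a gene, with the log2 of its mean CPM on the x axis and its log2 fold change (Dox against vehicle) on the y axis. Grey dots are all 18067 genes tested, apart from 18 beyond the plotted range of 4, and large points are the 68 tested members, 25 higher, 21 lower and 22 not called. Log2 fold changes of the members run from -1.23 to 0.88.

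**Figure D2:**
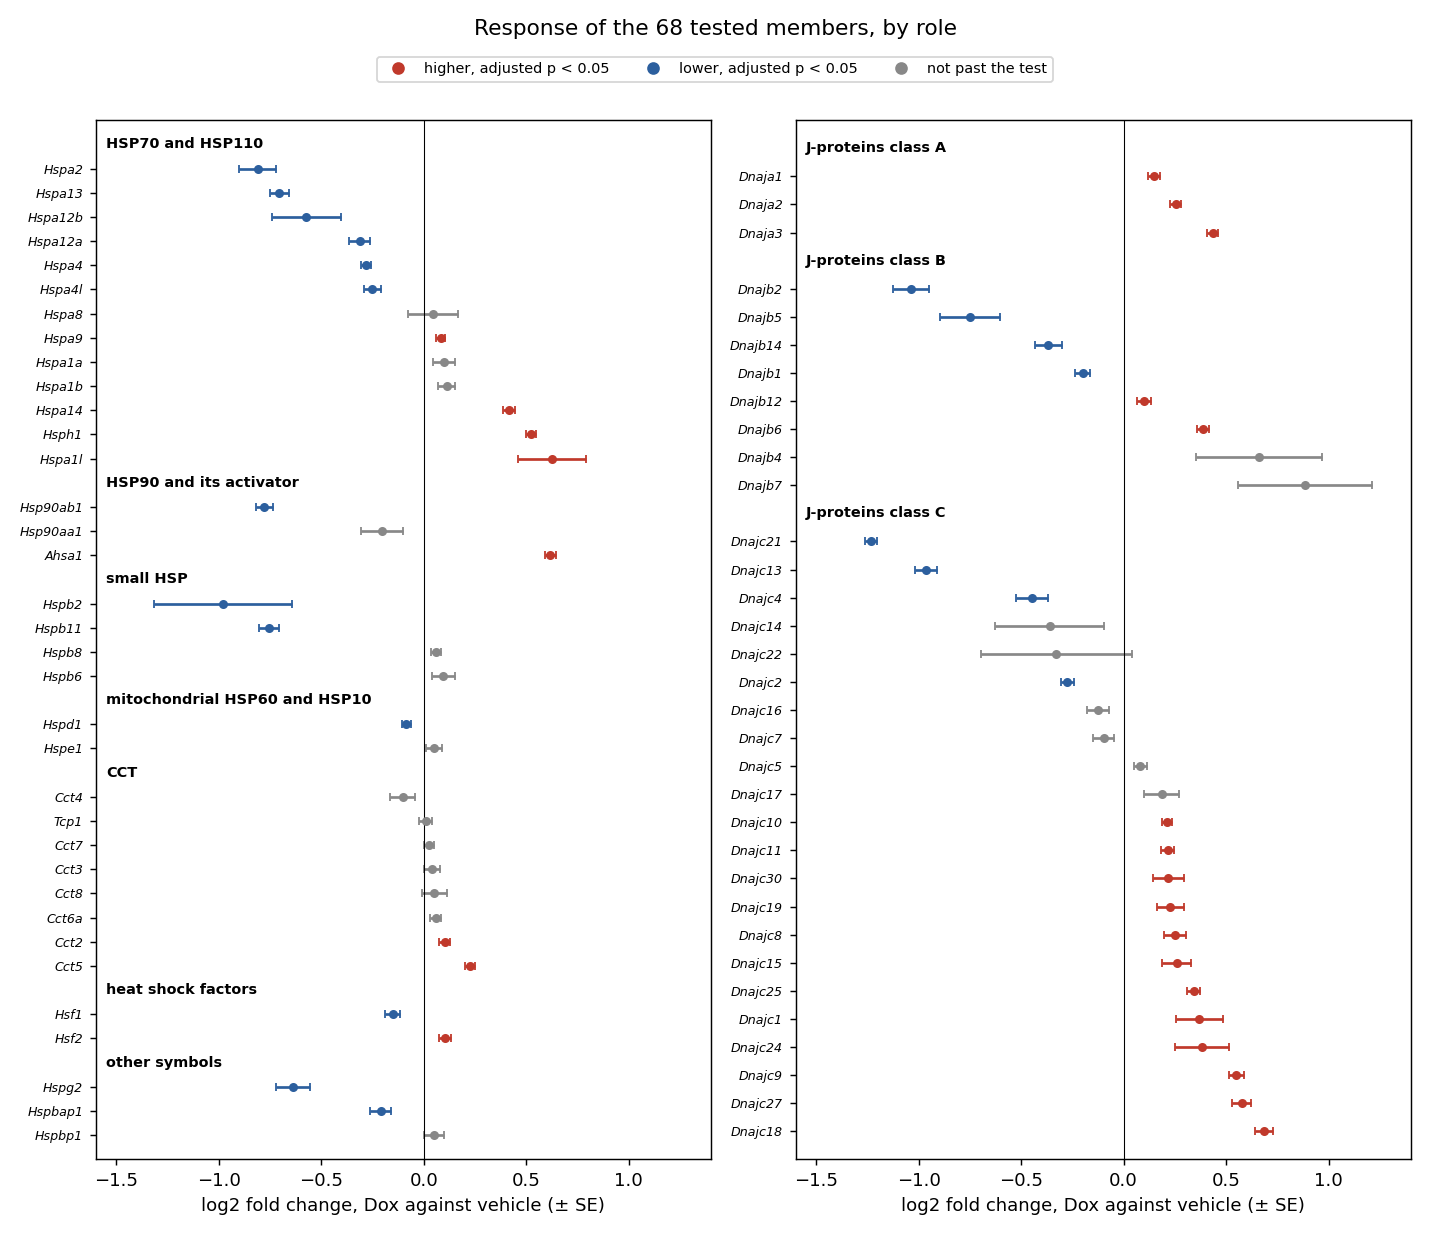
Log2 fold change of each tested member (x axis, Dox against vehicle, bars ± SE) by role, coloured by call. Class A J-proteins lie to the right of 0, the CCT subunits lie between -0.10 and 0.23, and both HSP70 relatives and class B J-proteins lie on both sides.

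The cytosolic HSP90 pair fell as a pool while its activator rose. Hsp90ab1, the constitutive HSP90, is the most abundant member (chromosome 17, 45567775 to 45573271, minus strand, in GENCODE M21 on GRCm38). It was at 3079.6, 3024 and 3016 CPM in vehicle replicates 1, 2 and 3 and at 1740.1, 1689 and 1892 CPM in Dox replicates 1, 2 and 3. Each Dox library was thus below each vehicle library, a 1.71-fold fall (log2 fold change -0.78 ± 0.043 SE, adjusted p = 1.7e-05). Hsp90aa1, the stress-inducible HSP90, did not pass (log2 fold change -0.20 ± 0.10 SE, adjusted p = 0.14). Its vehicle libraries held 427.0, 550.7 and 550.3 CPM and its Dox libraries 429.4, 434.8 and 463.6 CPM. Vehicle replicate 1 stood with the Dox libraries, and without it the log2 fold change was -0.32 with an adjusted p of 0.0015. Summed, the pair went from 3549 ± 37.3 to 2216 ± 123 CPM (SD, n = 3 each). Per kilobase of transcript, Hsp90ab1 exceeded Hsp90aa1 by 7.89 ± 1.3 times with vehicle and 5.22 ± 0.138 times with Dox (SD, n = 3 each).

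Ahsa1 encodes AHA1, the co-chaperone that stimulates the HSP90 ATPase (chromosome 12, plus strand, 87266479 to 87273998). It was at 137.4, 135.4 and 141.1 CPM with vehicle and 210.2, 208.4 and 216.1 CPM with Dox. The groups were well apart, and the rise was 1.53-fold (log2 fold change 0.62 ± 0.027 SE, adjusted p = 7.2e-06). Its level per kilobase, relative to that of Hsp90ab1, went from 0.0831 ± 0.0022 to 0.219 ± 0.0086 (SD, n = 3 each). Ahsa1 shares 76 exonic bases with Gm47293, whose reads could add to it.

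**Figure D3:**
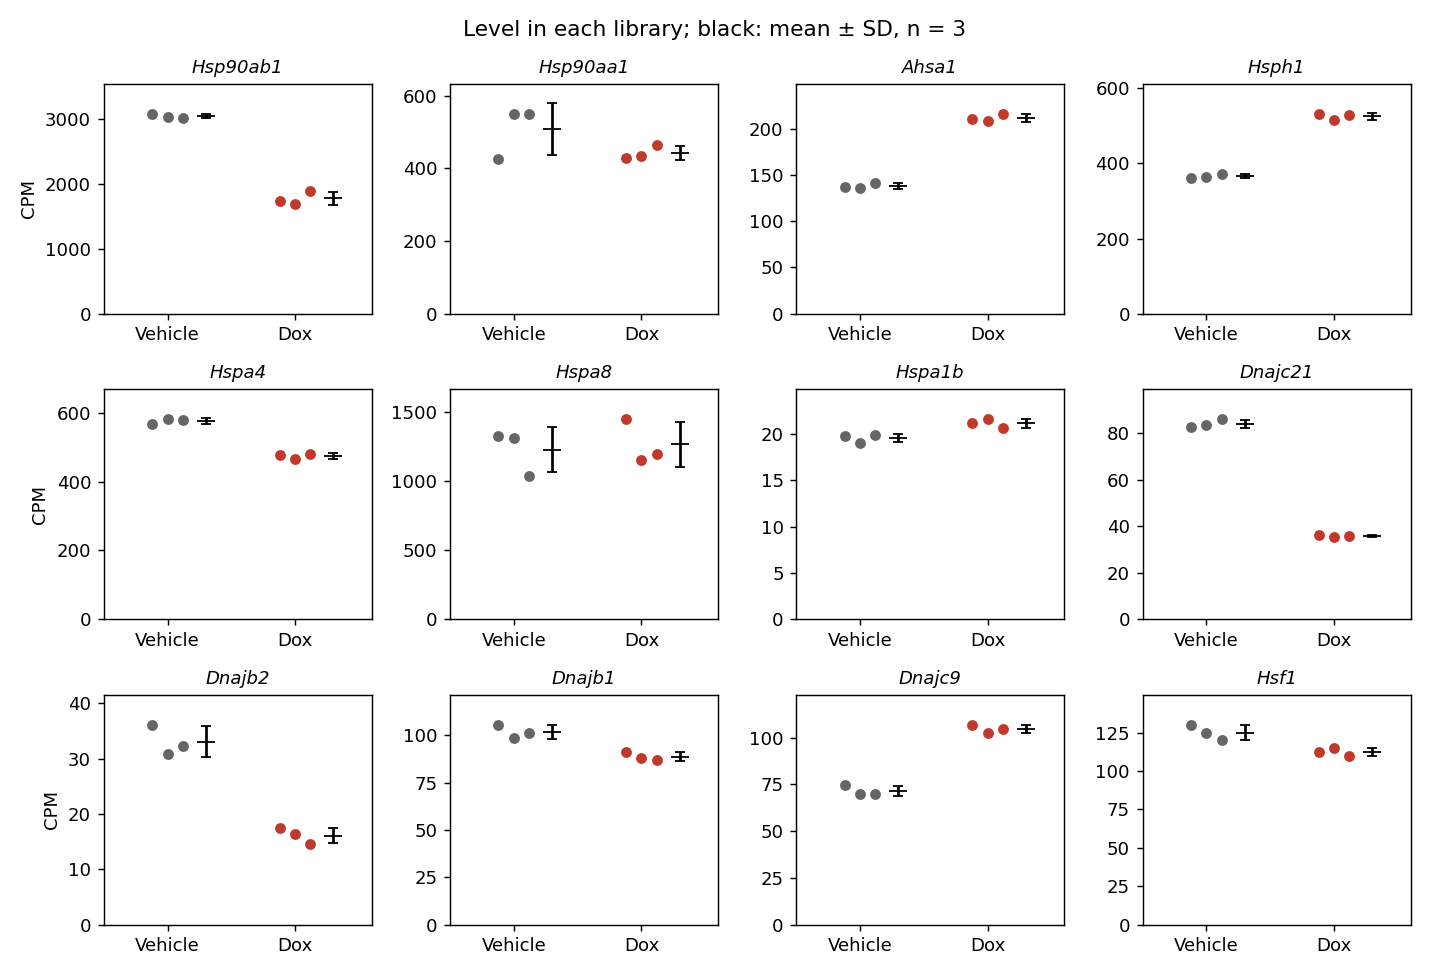
CPM (y axis, from 0) of 12 members in each of the 3 vehicle libraries (grey) and 3 Dox libraries (red), with mean ± SD in black. Hsp90ab1, Hspa4, Dnajc21, Dnajb2, Dnajb1 and Hsf1 have lower Dox libraries, Ahsa1, Hsph1, Hspa1b and Dnajc9 have higher ones, and Hsp90aa1 and Hspa8 overlap between groups.

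Among 13 HSP70 and HSP110 genes, all tested, 4 rose, 6 fell and 3 did not pass. The share called was 76.9%, beside 54.7% of all genes tested and 70.9% in the fit of genes of at least 5 CPM. Hspa8, the constitutive HSC70 and the most abundant of them, was at 1326, 1312 and 1039 CPM with vehicle and 1448, 1150.3 and 1198 CPM with Dox. The groups overlap, and the log2 fold change was 0.05 ± 0.12 SE (adjusted p = 0.78). The inducible genes Hspa1a and Hspa1b were low, at 12.1 ± 0.155 and 19.6 ± 0.472 CPM with vehicle and 12.9 ± 0.677 and 21.1 ± 0.496 CPM with Dox (SD, n = 3 each). Neither passed (log2 fold change 0.10 ± 0.054 and 0.11 ± 0.043 SE), although every Dox library lay above every vehicle library in both, and both passed with upper-quartile scaling (adjusted p = 0.018 and 0.0073). Hspa1l, their neighbour that is known from testis, was at 11.5, 7.97 and 9.68 CPM with vehicle and 12.7, 14.7 and 17.5 CPM with Dox, a 1.54-fold rise (adjusted p = 0.018). It shares 1778 exonic bases with Gm10501, so its counts are uncertain. Its adjusted p was 0.055 without vehicle replicate 3 and 0.057 without Dox replicate 3. Hspa1a shares 564 exonic bases with Gm20481.

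The HSP110 relatives, which act as exchange factors of HSP70, moved apart. Hsph1 (minus strand of chromosome 5, 149614287 to 149636376) was at 361.0, 364.6 and 372.1 CPM with vehicle and 532.7, 515.1 and 530.1 CPM with Dox, a 1.44-fold rise (log2 fold change 0.52 ± 0.023 SE, adjusted p = 7.6e-06). Hspa4 was at 567, 582 and 581 CPM with vehicle and 477, 465 and 482 CPM with Dox, a fall of 0.28 ± 0.023 SE on the log2 scale. Both genes kept their groups well apart, in opposite directions. Hspa4l fell by 0.25 ± 0.043 (SE, log2 scale). Per kilobase, the ratio of Hsph1 to Hspa4 went from 0.771 ± 0.0090 to 1.35 ± 0.0094 (SD, n = 3 each), so that their order turned over. The summed CPM of all 3 was 1203 ± 25.5 with vehicle and 1219.6 ± 16.9 with Dox (SD, n = 3 each), a difference smaller than the spread.

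The other HSP70 relatives with a fall were Hspa2, Hspa13, Hspa12a and Hspa12b. Hspa13, an HSP70-like protein of the secretory pathway, went from 66.3, 73.7 and 69.8 CPM to 42.8, 43.9 and 42.1 CPM, a 1.63-fold fall. Hspa2, known for its part in sperm formation, fell 1.75-fold from a low level of 2.04 ± 0.0918 CPM (SD, n = 3). The distant relatives Hspa12a and Hspa12b fell by 0.31 ± 0.051 and 0.57 ± 0.17 (SE, log2 scale), the latter with an adjusted p of 0.027 that rose above the threshold in the DESeq2 Wald test (0.10) and without vehicle replicate 2 or 3 or Dox replicate 1 or 3 (0.054 to 0.081). Hspa9, the mitochondrial HSP70, rose by 0.083 ± 0.021 (SE, log2 scale, adjusted p = 0.016), from 1157 ± 3.77 to 1225 ± 24.7 CPM (SD, n = 3 each). Its adjusted p was 0.055 without vehicle replicate 3.

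On the ribosome, the HSP70 relative HSPA14 and the J-protein DNAJC2 form a complex that receives new chains. Hspa14 was at 102.6, 101.1 and 102.9 CPM with vehicle and 136.2, 132.1 and 140.8 CPM with Dox, and rose by 0.42 ± 0.031 (SE, log2 scale, adjusted p = 5.5e-05). Dnajc2 was at 66.9, 66.6 and 69.6 CPM with vehicle and 57.1, 54.9 and 55.9 CPM with Dox, and fell by 0.27 ± 0.032 (SE, log2 scale, adjusted p = 4.6e-04). The partners thus moved in opposite directions, with no overlap of groups in either. Their ratio per kilobase went from 2.03 ± 0.0380 to 3.28 ± 0.0965 (SD, n = 3 each). Hspa14 shares 321 exonic bases with Gm45902.

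The J-proteins were the largest family, with 39 genes of which 33 were tested. Of these, 17 rose (51.5%) and 8 fell (24.2%), beside 25.9% and 28.8% of all genes tested, and 8 did not pass. Those 2 background shares include many low genes. In the fit of genes of at least 5 CPM, 4072 of 11629 genes were higher and 4176 lower. The J-proteins' share called was 75.8%, beside 54.7% of all genes tested and 70.9% in that other fit. The median log2 fold change was 0.213, beside 0.018 for all genes tested. The class A proteins are the full-length relatives of bacterial DnaJ. All 3 tested class A genes rose: Dnaja1 by 0.15 ± 0.029, Dnaja2 by 0.25 ± 0.026 and the mitochondrial Dnaja3 by 0.43 ± 0.027 (SE, log2 scale). Dnaja3 was at 65.3, 63.8 and 63.0 CPM with vehicle and 85.8, 86.4 and 87.3 CPM with Dox. Dnaja4 was not tested, at 2 to 7 counts per library.

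Class B J-proteins, the HSP40 type without the zinc-finger region, split: of 8 tested, 2 rose (25%), 4 fell (50%) and 2 did not pass. Of all genes tested, 25.9% were higher and 28.8% lower. Dnajb2, a neuron-enriched J-protein that hands ubiquitylated clients to the proteasome, was at 36.1, 30.9 and 32.2 CPM with vehicle and 17.4, 16.3 and 14.6 CPM with Dox. The groups were far apart, a 2.06-fold fall (log2 fold change -1.04 ± 0.088 SE, adjusted p = 1.0e-04). Dnajb5 fell 1.68-fold, with 8.59 to 8.85 CPM in vehicle and 3.998 to 5.82 CPM in Dox libraries, and Dnajb14, anchored in the endoplasmic reticulum membrane, by 0.37 ± 0.065 (SE, log2 scale). Dnajb1, the heat-inducible HSP40, was at 105.6, 98.7 and 101.1 CPM with vehicle and 91.4, 87.8 and 86.7 CPM with Dox, and fell by 0.20 ± 0.037 (SE, log2 scale, adjusted p = 0.0037), though not past the threshold with upper-quartile scaling (adjusted p = 0.055). Dnajb6, a suppressor of protein aggregation, was at 51.5, 51.1 and 49.8 CPM with vehicle and 67.3, 66.1 and 65.9 CPM with Dox (log2 fold change 0.39 ± 0.029 SE). Dnajb12, also of the endoplasmic reticulum membrane, rose by 0.10 ± 0.033 (SE, log2 scale), a call lost without any 1 vehicle library and without Dox replicate 1 or 2 (adjusted p 0.068 to 0.13), in the DESeq2 Wald test (0.097) and with no filter (0.053). With upper-quartile scaling the class split evenly, with 3 higher and 3 lower.

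Dnajb4 shows how 1 library decided a value. It was at 39.0, 36.5 and 16.7 CPM with vehicle and 54.4, 46.6 and 44.5 CPM with Dox. The log2 fold change was 0.66 ± 0.31 SE (adjusted p = 0.12), and without the low vehicle replicate 3 it was 0.36 with an adjusted p of 0.029. Dnajb7, at 0.244 ± 0.104 and 0.451 ± 0.0876 CPM (SD, n = 3 each), did not pass (adjusted p = 0.060). It passed without vehicle replicate 2 (0.019), with limma-voom (0.046), with a replicate block (0.038) and with upper-quartile scaling (0.038).

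Class C J-proteins have the J-domain in otherwise unlike proteins. Of 22 tested, 12 rose (54.5%), 4 fell (18.2%) and 6 did not pass, and 3 more were too low to test. Of all genes tested, 25.9% were higher and 28.8% lower, and 70.9% were called in the fit of genes of at least 5 CPM. With upper-quartile scaling 14 of the class were higher and 4 lower. Dnajc21, which takes part in maturation of the large ribosomal subunit, had the largest fall of any member (minus strand of chromosome 15, 10446756 to 10470516). It was at 82.8, 83.6 and 86.2 CPM with vehicle and 36.1, 35.6 and 35.8 CPM with Dox, with little spread in either group. The fall was 2.35-fold (log2 fold change -1.23 ± 0.029 SE, adjusted p = 1.5e-06). Dnajc13, the endosomal protein RME-8, fell 1.95-fold from 119.8, 130.2 and 115.0 CPM to 61.7, 64.3 and 61.0 CPM (adjusted p = 1.5e-05). Dnajc4 fell by 0.45 ± 0.078 (SE, log2 scale).

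No class C gene rose 2-fold or more. Dnajc18 had the highest rise of the class, 1.61-fold, from 29.3, 31.4 and 29.3 CPM to 48.6, 46.5 and 49.6 CPM (adjusted p = 3.3e-05). Dnajc27, which carries a Rab-like GTPase domain, was at 18.3 to 19.8 CPM in vehicle and 28.4 to 29.0 CPM in Dox libraries, a 1.49-fold rise. Dnajc9, a J-protein that is also a chaperone of histones, was at 74.6, 70.0 and 70.0 CPM with vehicle and 107.0, 102.5 and 104.7 CPM with Dox, a 1.46-fold rise (log2 fold change 0.55 ± 0.036 SE, adjusted p = 3.5e-05). In all 3 genes each Dox library exceeded each vehicle library.

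Among smaller class C rises, Dnajc11, Dnajc15, Dnajc19 and Dnajc30, whose proteins are found in mitochondria, rose by 0.21 to 0.26 on the log2 scale. These were singled out after their values were seen, and Dnajc4, also listed as mitochondrial, is among the falls above. Dnajc19 belongs to the import motor of the inner membrane, and Dnajc19-ps, its pseudogene, holds 11.9% as many counts. The adjusted p of Dnajc15, Dnajc19 and Dnajc30 were 0.023, 0.027 and 0.046, and each lost its call without vehicle replicate 3 (0.066, 0.054 and 0.14). Leaving out Dox replicate 1 ended the same calls (0.070, 0.059 and 0.094), and other single libraries did so for each. The Dnajc30 call was also lost in the DESeq2 Wald test (0.091) and with no filter (0.087). Dnajc1, Dnajc10 and Dnajc25, of the endoplasmic reticulum, rose by 0.37 ± 0.12, 0.21 ± 0.023 and 0.34 ± 0.034 (SE, log2 scale), while Dnajc16 of the same compartment did not pass (-0.12 ± 0.052, adjusted p = 0.086, and 0.032 without Dox replicate 2). The Dnajc1 call was lost without vehicle replicate 1 or 3 or Dox replicate 1 (0.060 to 0.088). The remaining class C rises were in Dnajc8, a splicing-associated protein (0.25 ± 0.055 SE, log2 scale), and Dnajc24, which acts in diphthamide synthesis (0.38 ± 0.13). The latter call was lost without vehicle replicate 1 or 3 or Dox replicate 2 or 3 (adjusted p 0.088 to 0.12) and with no filter (0.076).

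Among class C genes that did not pass, Dnajc5 encodes cysteine string protein of synaptic vesicles and was at 48.2 ± 1.07 and 51.0 ± 0.765 CPM (SD, n = 3 each). Dnajc14 was at 92.1, 91.4 and 69.1 CPM with vehicle and 79.5, 40.5 and 76.7 CPM with Dox, where Dox replicate 2 and vehicle replicate 3 lay apart from their groups (adjusted p = 0.30). It shares exonic bases with Ormdl2, Tmem198b and Sarnp. Dnajc6, the neuronal auxilin, was at 3 to 13 counts per library and was not tested.

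CCT is built of 8 kinds of subunit in 2 rings, and its genes changed little. Of 10 CCT genes, 8 were tested: Cct5 and Cct2 rose, 0 fell and 6 did not pass. The share called was 25%, beside 54.7% of all genes tested. In the fit of genes of at least 5 CPM, where 70.9% of all genes were called, Cct6a passed as well (adjusted p = 0.0325). Cct5 was at 747.6, 728.5 and 754.9 CPM with vehicle and 876.1, 852.3 and 883.8 CPM with Dox (log2 fold change 0.23 ± 0.024 SE, adjusted p = 2.9e-04). Cct2 had a log2 fold change of 0.10 ± 0.029 SE (adjusted p = 0.025), which was lost without vehicle replicate 2 or 3 and without Dox replicate 2 or 3 (0.057 to 0.075). Tcp1, Cct3, Cct4, Cct6a, Cct7 and Cct8 had log2 fold changes of -0.10 to 0.058. With upper-quartile scaling, which moved the median of all genes from 0.018 to 0.11, 6 of the 8 were called higher and the CCT median went from 0.046 to 0.14. The testis forms Cct6b and Cct8l1 had at most 13 and 2 counts.

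Per kilobase of transcript, CCT levels with vehicle ran from 144 ± 9.34 for Cct4 through Cct7, Cct6a, Cct8, Cct3, Tcp1 and Cct2 to 401 ± 7.38 CPM for Cct5 (SD, n = 3 each), a 2.78-fold span. With Dox the order was the same and the span 3.49-fold. Cct7, Cct6a and Cct8 lay between 196 and 225 CPM per kilobase with vehicle, and Cct6a and Cct8 differed by less than the spread of Cct8. Tcp1, Cct6a, Cct7 and Cct8 share exonic bases with a neighbouring gene (for Tcp1, 571 with its largest neighbour), which can add to their level.

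**Figure D4:**
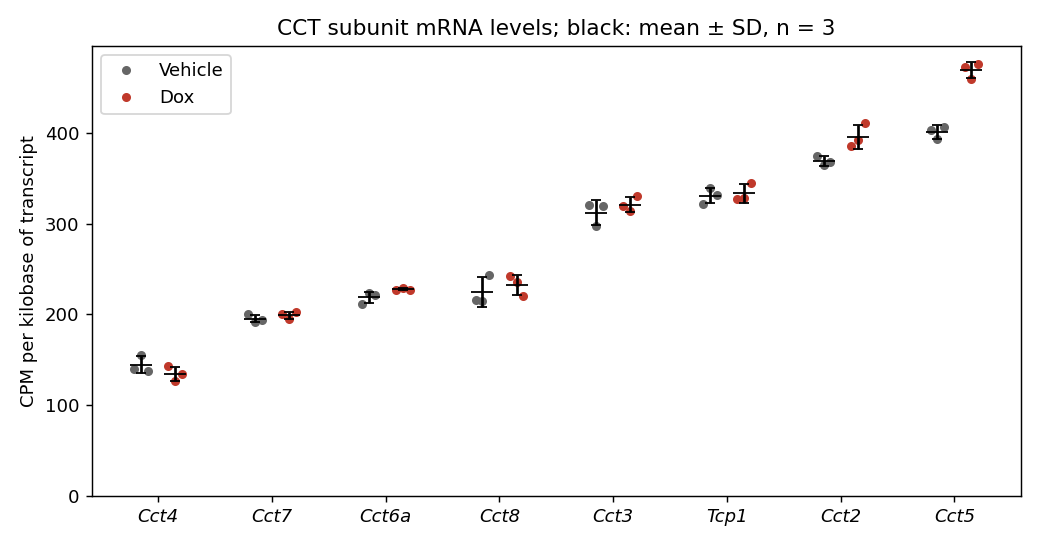
CPM per kilobase of transcript (y axis, from 0) of the 8 tested CCT subunits, ordered by vehicle level, in vehicle (grey) and Dox (red) libraries with mean ± SD in black. Cct4 is lowest and Cct5 highest in both groups, and Cct5 has the widest gap between vehicle and Dox libraries.

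The mitochondrial chaperonin pair, whose shared element is printed above, stayed near its level. Hspd1 (HSP60) was at 1685, 1730.2 and 1722 CPM with vehicle and 1615, 1588 and 1639.8 CPM with Dox, a fall of 0.085 ± 0.021 (SE, log2 scale, adjusted p = 0.015). With upper-quartile scaling the sign turned (0.0087, adjusted p = 0.77), and the adjusted p was 0.11 with no filter and 0.053 without Dox replicate 1. Hspe1 (HSP10) was at 368 ± 18.7 and 381 ± 2.69 CPM (SD, n = 3 each, adjusted p = 0.31). The pseudogene row Hspd1-ps3 held 21.1% as many counts as Hspd1 and had a log2 fold change of -0.084, so reads of both may be split between rows. The 2 genes also share 112 exonic bases.

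Of 8 small HSP genes, whose proteins hold unfolding clients in large oligomers, 4 were tested. Hspb8, which works with BAG3 in selective autophagy, was the main one at 187 ± 3.18 CPM with vehicle and 195.0 ± 3.70 CPM with Dox (n = 3 each, SD), and Hspb6 was at 27.3 to 29.6 CPM in vehicle and 29.0 to 31.8 CPM in Dox libraries, which overlap. Neither passed, while both did with upper-quartile scaling. Hspb1, the HSP27 gene of many stressed cells, had only 3 to 7 counts in every library and was not tested, close to a floor of 3 counts. Hspb11 was at 22.8, 21.7 and 23.4 CPM with vehicle and 12.9, 13.5 and 13.8 CPM with Dox, a 1.69-fold fall (adjusted p = 3.7e-05). It encodes IFT25, a protein of ciliary transport, not a small HSP by function. Hspb2 fell from 12 to 20 counts with vehicle to 6 to 10 with Dox (adjusted p = 0.047), a call lost when any 1 library was left out (0.055 to 0.14). It shares 252 exonic bases with Cryab.

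The 2 heat shock factor genes among the members, Hsf1 and Hsf2, moved little. Hsf1 was at 130.2, 124.8 and 120.1 CPM with vehicle and 112.6, 114.9 and 110.0 CPM with Dox, a fall of 0.15 ± 0.037 (SE, log2 scale, adjusted p = 0.013). Hsf2 was at 50.1, 50.8 and 49.9 CPM with vehicle and 53.0, 54.1 and 55.0 CPM with Dox, a rise of 0.10 ± 0.029 (adjusted p = 0.022). The groups did not overlap in either. The Hsf1 call was lost with upper-quartile scaling (adjusted p = 0.20) and, narrowly, without Dox replicate 3 (0.0503), and the Hsf2 call in the DESeq2 Wald test (0.073) and without vehicle replicate 1 or 3 or Dox replicate 2 or 3 (0.061 to 0.069).

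The name pattern also caught 3 genes of other kinds. Hspg2 encodes perlecan, a heparan sulfate proteoglycan of the basement membrane and no chaperone, and fell 1.55-fold from 684.7, 785.9 and 720.5 CPM to 473.1, 514.9 and 421.4 CPM (adjusted p = 7.8e-04). Hspbap1 fell by 0.21 ± 0.052 (SE, log2 scale, adjusted p = 0.014, and 0.051 without vehicle replicate 3), and Hspbp1, an exchange factor of HSP70, did not pass at 54.8 ± 2.76 and 56.8 ± 2.00 CPM (SD, n = 3 each).

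The reads assigned to all 80 members summed to 17797 ± 134 CPM in vehicle and 16662 ± 307 CPM in Dox libraries (SD, n = 3 each). That is 1.78% and 1.67% of the effective library size, not of raw counts. The scaling factors were 0.970 to 0.980 in vehicle and 1.02 to 1.03 in Dox libraries, so shares of raw counts lie closer together. Without Hsp90ab1 the sums were 14757 ± 143 and 14888 ± 244 CPM, within each other's spread. Summed J-protein reads were 2185 ± 17.8 and 2300.2 ± 36.5 CPM, and summed CCT reads 4806 ± 47.9 and 5035 ± 68.2 CPM (SD, n = 3 each).

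Partner genes outside the name pattern were read from lists of the chaperone network. Of all genes tested, 25.9% were higher and 28.8% lower, and 70.9% were called in the fit of genes of at least 5 CPM. Beside these, 50% to 100% of the tested genes of each list were called, and no list was tested as a set. The HSP70 exchange factors and co-chaperones fell in 8 of 12 and rose in 3 (7 and 3 with upper-quartile scaling). The Sgta fall was lost with that scaling (adjusted p = 0.33), with the replicate block (0.065) and without any 1 Dox library (0.056 to 0.10). St13, the HSP70-interacting protein HIP, fell 1.99-fold, from 368.0, 365.8 and 364.8 CPM to 182.0, 177.3 and 192.8 CPM (adjusted p = 3.3e-06), and Bag2 fell by 0.53 ± 0.027 (SE, log2 scale). Bag3, a stress-induced partner of HSPB8, rose by 0.32 ± 0.035, and Bag5 by 0.41 ± 0.050 (SE, log2 scale). The median log2 fold change of the list was -0.358.

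Of 19 HSP90 co-chaperones, 5 rose, 8 fell and 6 did not pass (median -0.133). With upper-quartile scaling the split turned to 8 higher and 4 lower. The Fkbp8 fall was also lost without any 1 Dox library (adjusted p 0.061 to 0.095), and the Sugt1 rise, narrowly, without vehicle replicate 1 (0.0503). Chordc1 rose from 106.5, 117.2 and 114.1 CPM to 180.8, 183.8 and 181.5 CPM, and Ppid, a cyclophilin, by 0.47 ± 0.024, while the immunophilin Fkbp4 fell by 0.30 ± 0.029 and Tomm34 by 0.30 ± 0.036 (SE, log2 scale). Of 10 prefoldin and CCT cofactor genes, 5 rose, 1 fell and 4 did not pass (7 higher and 1 lower with upper-quartile scaling). The Pfdn2 rise was lost when any 1 library was left out (adjusted p 0.055 to 0.13) and in the DESeq2 Wald test (0.077). That of Pfdn4 was lost without vehicle replicate 1 or 2 (0.055 and 0.057). Pfdn6 rose by 0.54 ± 0.039 and Txndc9 by 0.48 ± 0.093, and Pdcl3 fell by 0.66 ± 0.034 (SE, log2 scale).

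The clients of CCT and the tubulin cofactors fell in 12 of 14 tested genes and rose in 2 (median -0.367), beside a median of 0.046 for the CCT genes. Tubb2a, a beta-tubulin, fell 3.23-fold from 39.4, 36.0 and 35.9 CPM to 10.6, 12.5 and 11.3 CPM. Tubb5 fell by 0.49 ± 0.019, and Tubb4b and Tubb6 rose by 0.093 ± 0.024 and 0.088 ± 0.020 (SE, log2 scale). The Tubb4b call was lost without vehicle replicate 3 or Dox replicate 1 or 2 (adjusted p 0.052 to 0.064). Of 10 mitochondrial chaperones and proteases, 4 rose and 1 fell: Lonp1 rose by 0.40 ± 0.019 and Clpp by 0.45 ± 0.044, and Htra2 fell by 0.40 ± 0.037 (SE, log2 scale).

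Of 12 endoplasmic reticulum chaperone genes, among them the 5 that the rule left out, 3 rose and 6 fell. The J-protein genes Dnajb9 and Dnajb11 rose by 0.75 ± 0.066 and 0.47 ± 0.047, while Hsp90b1, the HSP90 of that compartment, and Pdia6 fell by 0.49 ± 0.021 and 0.71 ± 0.037 (SE, log2 scale). In the list of heat shock factor regulators, 6 genes were tested, and 4 fell and 1 rose (3 and 2 with upper-quartile scaling). The falls include Hsf4, by its symbol a heat shock factor gene itself, which the member rule does not cover. Vehicle libraries held 5.81 to 8.85 CPM of Hsf4 and Dox libraries 3.70 to 4.84 CPM. Its log2 fold change was -0.82 ± 0.18 SE (adjusted p = 0.0076). Hdac6, a cytoplasmic deacetylase of HSP90, fell 3.76-fold from 20.0, 20.9 and 19.8 CPM to 5.68, 5.45 and 4.99 CPM (adjusted p = 3.0e-06). Hsbp1, a binding protein of HSF1, fell by 0.31 ± 0.035, and the deacetylase gene Sirt1 rose by 0.61 ± 0.081 (SE, log2 scale).

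**Figure D5:**
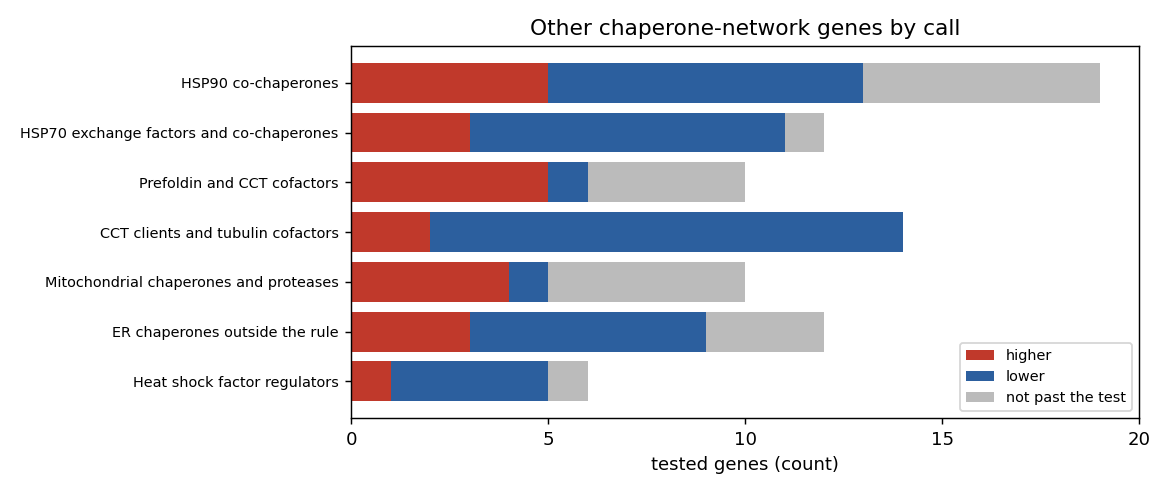
Number of tested genes (x axis) that were higher, lower or not past the test in each of 7 lists of chaperone partners. Falls outnumber rises in the HSP70 exchange factors (8 and 3) and in the CCT clients and tubulin cofactors (12 and 2), and rises outnumber falls in the prefoldin and CCT cofactors (5 and 1). Of all genes tested, 25.9% were higher and 28.8% lower.

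In the authors' deposited table, 36 of the tested members were called, 18 higher and 18 lower, beside 42.6% of the genes tested here. That table uses the same libraries and an adjusted p under 0.01. All 36 were also called here with the same sign, and 0 members were called there alone. Its log2 fold changes were -1.23 for Dnajc21, -0.77 for Hsp90ab1, 0.61 for Ahsa1 and 0.52 for Hsph1.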

How the data were processed

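The 6 HT22 libraries were made from total RNA taken up in TRIzol, per the labels' protocols. FastQC 0.11.3, HISAT2 2.1.0, StringTie 1.3.3, DESeq2 and GRCm38 are named in the submitters' processing notes, with no role. Annotation, strandedness and treatment of multi-mapping reads were not given in the sources used here. Raw whole-number counts for 29493 gene symbols were deposited. Another deposited table holds, per the file headers, the authors' mean normalized signal, their log2 fold change and its error, a test score, the p-value and its adjusted form.

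Columns were matched to samples through the labels' descriptions. filterByExpr kept 18067 genes, which were scaled by TMM (0.970 to 1.03) and fitted together, Dox against vehicle, with the quasi-likelihood test of edgeR 4.0.16 (limma 3.58.1, R 4.3.3). All adjusted p-values are Benjamini-Hochberg values over these genes, with a threshold of 0.05. The SE is the log2 fold change divided by the root of F. The fit was tested on simulated data. Lengths (longest transcript, coding first), coordinates and exonic overlap of at least 50 bases came from GENCODE M21 (GRCm38), where all 80 members matched. Replicates differed by more than counting noise (11.1 to 13.8 for chi-square over its degrees of freedom). No permutation test was run, as 3 against 3 allows no p under 0.1.

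Members, lists and tests were chosen with earlier results of these data known. The genes to be named were called members of at least 1.5-fold, every CCT gene, classical heat shock genes, the 2 most abundant of each role, and up to 2 partner genes per direction and list. Other members were described beside them after their values were seen. Alternatives comprised DESeq2 1.42.0 (size factors, or its Wald test), upper-quartile scaling, limma-voom, other filters (none, or 5 CPM), stricter thresholds (0.01, or glmTreat at 1.2-fold), a replicate block, and each library left out.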

Additional observations from a re-analysis of the deposited data

How the results depend on the processing

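The counts of 25 higher and 21 lower members stayed within 1.5 times under most of the alternatives. At an adjusted p under 0.01, 15 were higher, and with glmTreat against a 1.2-fold change 9 were higher and 10 lower, with 6032 of all genes called. Leaving out 1 library gave 16 to 23 higher and 18 to 21 lower members, and 8987 to 9330 of all genes. The fewest higher members, 16, came without vehicle replicate 3. Same-numbered libraries' deviations correlated at 0.069, 0.052 and -0.094, so the numbers were not taken as pairs. With the replicate block 23 were higher and 20 lower, and 9699 of all genes were called. The block ended the calls of Dnajb12 (adjusted p = 0.079), Dnajc19 (0.072), Dnajc30 (0.093) and Hspb2 (0.12), and of no other called member. Upper-quartile scaling raised the share of members' calls that were higher from 54.3% to 69.8%, and that of all genes from 47.4% to 58.4%, and it turned the sign of Hspd1 to 0.0087 (from -0.085). Over the 13 refits other than the stricter thresholds, 30 of 46 called members kept call and direction, 15 of each direction, and 7 of 22 uncalled members were never called. The cause of these differences was not tested. Counting limits the 12 members that were not tested, of which the highest had 13 counts in a library.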
